A study of Labeotropheus fuelleborni and Maylandia zebra with 12 samples.

Results

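The cornified envelope genes described here are tgm1, ppl, evpl and scel, taken by name from a table of 26490 gene features, in which each name occurred once. RNA sequencing measured them in replacement teeth and taste bud epithelium of the cichlids Labeotropheus fuelleborni and Maylandia zebra, which live in Lake Malawi, with 3 libraries for each species and tissue and 12 in all. The tooth libraries came from replacement teeth lifted out of their crypts inside the jaw bone. The taste bud libraries came from a narrow strip of lower jaw epithelium on the lip side of the outer tooth row, so they hold the whole epithelium that carries taste buds and not isolated taste cells. The labels name no treatment, and the groups differ in them by species and tissue only. Nothing in the labels says that the 3 libraries of a group came from different animals, and p-values therefore cover only the variation between the libraries, some of which may be technical.

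In mammals the cornified envelope is a sheet of crosslinked protein that is laid down under the plasma membrane of a keratinocyte as it matures. The plakins periplakin (ppl) and envoplakin (evpl) bind each other and form an early scaffold near desmosomes, the junctions that anchor keratin filaments. Transglutaminase 1 (tgm1) is the membrane-bound enzyme that joins envelope proteins to each other, and sciellin (scel) is one of the precursor proteins that become crosslinked. Fish oral epithelium is a moist stratified epithelium without the dead cornified layer of mammalian skin, and the roles above are known from mammals.

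Counts per library ranged from 72226 to 300663, and 1 count was worth 3.02 to 14.4 CPM, the count per 1000000 of library size after TMM scaling. At this depth a count of 0 in a single library allows a level of up to 9.05 to 43.3 CPM, taking 3 counts as the limit. Intervals and limits of this kind cover counting error only. A list of tooth mineral matrix genes had 12 tested, and each was called higher in tooth, as were 32.6% of all tested genes. Of the 12, 10 passed the filter on low counts through tooth libraries alone, so their direction was built into being tested. The gene col1a1 (the main collagen of dentin and bone) was one of the 12 and passed through both tissues. A list for taste receptor cells had 3 genes tested. The calls for trpm5 (the cation channel of taste transduction) and ddc (a decarboxylase of serotonin synthesis) went to taste bud. So did those of 20.2% of all tested genes. The call for itpr3 (a calcium release channel) went to tooth. The filter passed ddc through taste bud libraries alone and itpr3 through tooth libraries alone, so their directions were built in. It passed trpm5 through both tissues. Among genes of the list below the filter, plcb2 had 32 tooth counts and 2 taste bud counts, and pou2f3 had 18 and 0. In that list calhm3 and snap25 had 0 counts in every library, and calhm1 and otop1 had 1 count each over the 12 libraries together. Several libraries stood apart from their groups. L. fuelleborni tooth replicate 4 was the deepest and had a ribosomal protein share of 6.60%, against 2.52% and 2.54% in the other tooth libraries of that species. M. zebra taste bud replicate 2 had the fewest features with a count, 5979, against 7212 to 15892 elsewhere. L. fuelleborni taste bud replicate 4 was farthest from its group over features with 10 or more summed counts in a pair of libraries. Its chi-square per degree of freedom was 17.6 and 13.2, against 6.73 between the others of that group. The feature LOC105941146, the most abundant in taste bud, took 11.9% of the counts of replicate 4 against 26.4% and 24.4%. In the same group replicate 1 had a ribosomal protein share of 6.63%, against 4.18% and 3.196%.

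The enzyme gene tgm1 was counted in taste bud epithelium and was at 0 in tooth. In taste bud replicates 1, 2 and 4 of L. fuelleborni it had 21, 13 and 20 counts, and in replicates 1, 2 and 3 of M. zebra it had 4, 2 and 12. The corresponding levels were 120.0, 61.4 and 144 CPM in L. fuelleborni and 55.9, 28.9 and 111 CPM in M. zebra. Each taste bud library had at least 2 counts and each of the 6 tooth libraries had none, and the levels of the 2 species overlapped within taste bud. Over the 3 tooth libraries of a species a count of 0 allows up to 5.06 CPM in L. fuelleborni and up to 4.88 CPM in M. zebra. On summed counts the taste bud level of tgm1 was 20.3-fold the tooth limit of 3 counts in L. fuelleborni and 14.8-fold in M. zebra. These ratios leave out the counting error of taste bud. The gene tgm1 was 1 of 21 features in the whole table with no tooth count and a count in every taste bud library, and of these 3 carried a gene name. The other two, gp1bb and pot1 (a platelet receptor chain and a telomere-binding protein in mammals, named here after their values were seen), had 20 and 13 taste bud counts against 72 for tgm1, and features without a gene name reached the level of tgm1. The remaining transglutaminase genes found by name held almost nothing. The tissue transglutaminase tgm2 had 6 counts, all in L. fuelleborni tooth replicate 4, and f13a1 (the coagulation factor chain) had 0 in every library.

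With replicates in the same order, periplakin, ppl, was at 869, 747 and 797 CPM in L. fuelleborni taste bud and at 308, 188 and 241 CPM in M. zebra taste bud. In tooth it was at 8.21, 14.3 and 36.2 CPM in L. fuelleborni (replicates 0, 3 and 4) and at 0, 23.2 and 4.40 CPM in M. zebra (replicates 0, 1 and 3). The lowest taste bud library thus lay above the highest tooth library in either species. The gene had a count in 5 of 6 tooth libraries, with 15 counts in L. fuelleborni and 6 in M. zebra. On summed counts the taste bud level was 31.7-fold the tooth level in L. fuelleborni (95% counting interval 19.0 to 57.1) and 25.1-fold in M. zebra (10.9 to 71.1). The fitted log2 fold change was 5.12 (SE 0.67, adjusted p = 1.57e-06) in L. fuelleborni and 4.57 (SE 0.72, adjusted p = 2.12e-05) in M. zebra. It was 6.09 in L. fuelleborni when tooth replicate 4 was left out and 6.23 in M. zebra when tooth replicate 1 was left out.

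Its partner envoplakin, evpl, was at 314, 492 and 481 CPM in L. fuelleborni taste bud and at 322, 231 and 158 CPM in M. zebra taste bud. In tooth it was at 8.21, 0 and 30.2 CPM in L. fuelleborni and at 17.5, 32.5 and 17.6 CPM in M. zebra. The tissues did not overlap, and the species overlapped within each tissue. With 25 tooth counts, evpl had a count in all 3 M. zebra tooth libraries and in 2 of the L. fuelleborni ones, where replicate 4 held 10 of 11 counts. The ratio of taste bud to tooth on summed counts was 23.2 (12.7 to 47.1) in L. fuelleborni and 9.88 (5.43 to 19.2) in M. zebra. The log2 fold change was 4.68 (SE 0.69, adjusted p = 7.97e-06) and 3.33 (SE 0.67, adjusted p = 2.99e-04) in the 2 species. The L. fuelleborni value was 6.56 when tooth replicate 4 was left out.

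Sciellin, scel, was at 126, 184 and 172 CPM in L. fuelleborni taste bud and at 238, 101 and 55.6 CPM in M. zebra taste bud. In tooth it had 2 counts, both in L. fuelleborni replicate 4 (6.04 CPM), and none in the other 5 libraries. The lowest and the highest of the 6 taste bud values were both M. zebra libraries, so the species overlapped fully. The ratio of taste bud to tooth was 47.9 (12.9 to 402) in L. fuelleborni. In M. zebra, where tooth had 0 counts, the taste bud level was 24.7-fold the tooth limit of 3 counts. That ratio leaves out the counting error of taste bud. With tooth replicate 4 left out, L. fuelleborni tooth had 0 counts of scel too, and the fitted log2 fold change there went from 5.37 to 7.66.

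**Figure D1:**
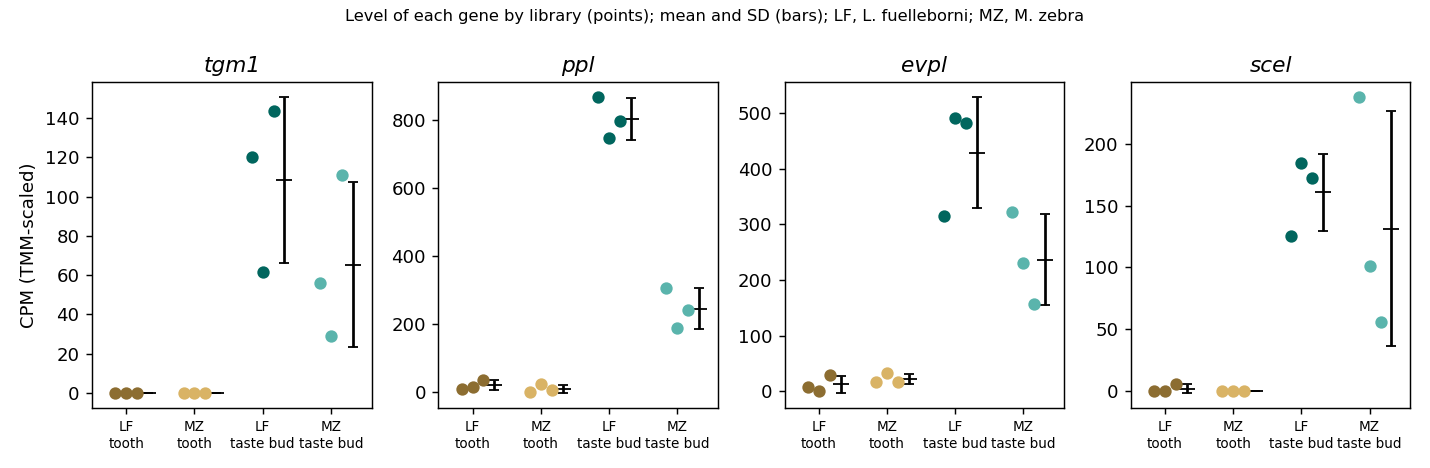
Level of each of the 4 genes in every library, in CPM on a linear axis that differs between panels, for L. fuelleborni (LF) and M. zebra (MZ). Points are libraries and bars are the mean and SD of 3 libraries; all taste bud points lie above all tooth points for each gene, and the LF and MZ taste bud points of ppl do not overlap.

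Each of the 4 genes was called higher in taste bud within each species and over both, in the edgeR test across 2962 genes. The background was 20.2% of tested genes called in this direction over both species, 13.9% in L. fuelleborni and 15.7% in M. zebra. All 6 taste bud libraries lay above all 6 tooth libraries for each of the 4, a pattern found in 9.42% of tested genes. Within species the same held in 17.8% of tested genes for L. fuelleborni and 20.4% for M. zebra. All 4 genes passed the filter on low counts through taste bud libraries alone, with 0 tooth libraries over the filter level, so a tissue difference was built into their being tested and their number is not read as support. Over both species the log2 fold change was 4.84 (SE 0.49) for ppl, 4.01 (SE 0.48) for evpl, 6.39 (SE 0.73) for scel and 6.83 (SE 0.89) for tgm1, with adjusted p from 7.52e-09 (ppl) to 9.69e-07 (tgm1). The values for tgm1, which had no tooth count, and for scel, which had none in M. zebra, depend on the prior count of the fit and are no measure of size. In whole tissue, fewer cells that express a gene and less of its RNA per cell cannot be told apart.

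**Figure D2:**
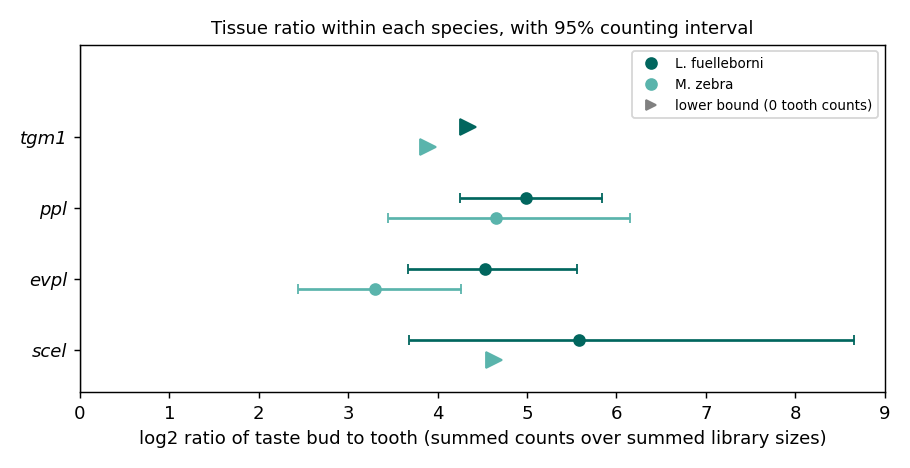
Ratio of taste bud to tooth on a log2 axis for each gene and species, from summed counts over summed library sizes, with 95% counting intervals. Arrowheads, where tooth had 0 counts, are the taste bud level over the tooth limit of 3 counts. They are labelled lower bounds but leave out the counting error of taste bud. The intervals of the 2 species overlap for ppl and for evpl, whose ratios are 23.2 in L. fuelleborni and 9.88 in M. zebra.

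To find out whether the tissue difference itself differed between the fishes, the interaction of species and tissue was tested for ppl and evpl, the 2 genes with tooth counts in both species. The L. fuelleborni difference exceeded that of M. zebra by 0.55 on the log2 scale for ppl (SE 1.15, adjusted p = 0.924) and by 1.35 for evpl (SE 0.95, adjusted p = 0.732). Neither passed, and both SEs were wide. With 1 library left out the value for evpl ran from 0.93 to 3.25 (without L. fuelleborni tooth replicate 4) and that for ppl from -1.11 (without M. zebra tooth replicate 1) to 1.55 (without L. fuelleborni tooth replicate 4). The test called 0 of 2962 genes (0% of those tested), 228 had an unadjusted p under 0.05, and DESeq2 also called 0. Within tooth, evpl (log2 fold change -0.48, SE 0.76, adjusted p = 0.972) and ppl (1.16, SE 0.80, adjusted p = 0.806) did not pass between species, and 1.52% of tested genes were called there. The evpl value was -2.29 without L. fuelleborni tooth replicate 4 and -0.065 without replicate 3, and the ppl value ran from 0.26 (without L. fuelleborni tooth replicate 4) to 2.81 (without M. zebra tooth replicate 1).

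The species were then compared within taste bud epithelium, where ppl was the gene of the 4 with the widest gap. Its mean level was 804 ± 61.2 CPM in L. fuelleborni and 246 ± 60.0 CPM in M. zebra (SD, n = 3 each), with no overlap. All 3 L. fuelleborni libraries lay above all 3 of M. zebra in 12.6% of tested genes. The ratio on summed counts was 3.26 (2.49 to 4.34), and the log2 fold change was 1.71 (SE 0.56). With an unadjusted p = 0.00488 the difference missed the threshold over all genes (edgeR, adjusted p = 0.0776), in a comparison that called 4.29% of tested genes. The call depended on the setting. It passed with DESeq2 (adjusted p = 0.0259), in the fit that left out tooth replicate 4 of L. fuelleborni (adjusted p = 0.0340) and in the fit of the 2 taste bud groups alone (adjusted p = 0.0377). Over the alternatives run, adjusted p ranged from 0.0259 to 0.221, the latter when taste bud replicate 2 of M. zebra was left out. Every M. zebra taste bud library was also shallower, with 72226 to 111155 counts against 147480 to 248332 in L. fuelleborni. Features with a count were fewer as well, 5979 to 8502 against 10434 to 11113. The part of depth in the ppl difference was not tested.

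The other genes were closer between the species. Mean evpl was 429 ± 99.5 CPM in L. fuelleborni and 237 ± 82.2 CPM in M. zebra taste bud, a log2 fold change of 0.87 (SE 0.57, adjusted p = 0.435). Mean tgm1 was 108 ± 42.3 and 65.4 ± 42.0 CPM (log2 fold change 0.65, SE 0.71, adjusted p = 0.691). Mean scel was 161 ± 30.97 and 131 ± 94.8 CPM (log2 fold change 0.32, SE 0.64, adjusted p = 0.850). The SD over the mean was 7.61% for ppl in L. fuelleborni taste bud and 72.1% for scel in M. zebra taste bud, so the spread was far from equal across genes and groups. For each gene the order of group means was L. fuelleborni taste bud, M. zebra taste bud, then the tooth groups. The 2 taste bud groups, neighbours in that order, did not differ past the threshold for any of the 4 genes, nor did the 2 tooth groups for ppl and evpl, and tgm1 and scel could not be tested between tooth groups.

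The proportion among the genes does not depend on how libraries are scaled. Of the summed counts of the 4 genes, ppl held 60.8%, 50.3% and 50% in taste bud replicates 1, 2 and 4 of L. fuelleborni. In replicates 1, 2 and 3 of M. zebra it held 33.3%, 34.2% and 42.6%, which did not overlap with L. fuelleborni. The same ppl counts gave the gap in CPM, so this is not a separate result. The Wilson 95% intervals of single libraries were wide, from 43.5% to 56.5% for L. fuelleborni replicate 4 and from 31.02% to 55.1% for M. zebra replicate 3. The mean share was 53.7% ± 6.15 against 36.7% ± 5.13 (SD, n = 3 each), and the two-sided exact permutation test gave p = 0.1, the smallest that 3 against 3 libraries allow. The shares of evpl (28.4% ± 5.76 and 34.9% ± 7.12), scel (10.7% ± 1.81 and 18.0% ± 7.97) and tgm1 (7.18% ± 2.65 and 10.3% ± 8.10) overlapped between the species, with exact p from 0.3 to 0.8. Counts were not corrected for transcript length, so these shares compare a gene between libraries and not 1 gene with another.

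**Figure D3:**
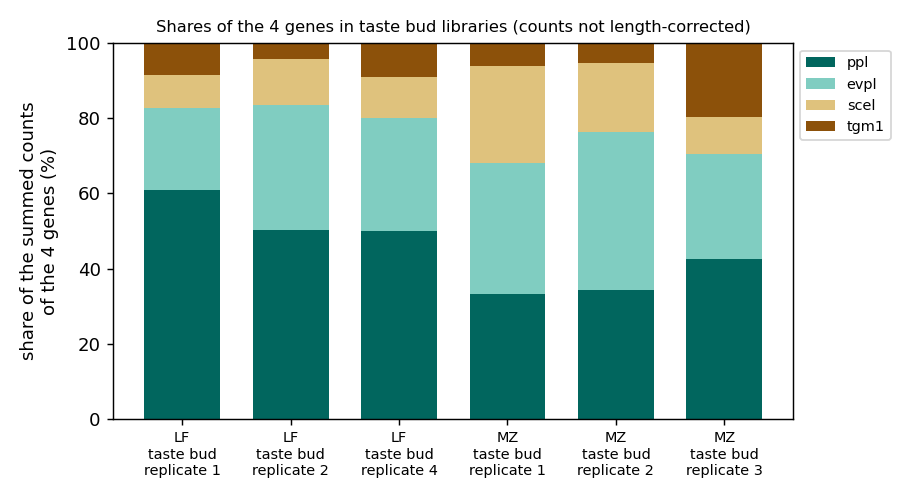
Share of each of the 4 genes in their summed counts, in percent, for the 6 taste bud libraries. The ppl segment spans 50% to 60.8% in the L. fuelleborni (LF) libraries and 33.3% to 42.6% in the M. zebra (MZ) libraries.

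Because periplakin and envoplakin act as a pair, their counts were also set against each other. There were 2.76, 1.52 and 1.66 counts of ppl for each count of evpl in L. fuelleborni taste bud, and 0.957, 0.813 and 1.53 in M. zebra taste bud. M. zebra replicate 3 overlapped the lowest L. fuelleborni library, and the exact permutation test on the log2 ratio gave p = 0.2. In tooth, ppl made up 15 of the 26 counts of ppl and evpl in L. fuelleborni (57.7%, Wilson 95% interval 38.9% to 74.5%) and 6 of 20 in M. zebra (30.0%, 14.5% to 51.9%). The corresponding taste bud shares were 65.1% (61.3% to 68.6%) and 52.1% (43.2% to 61.0%). In L. fuelleborni tooth, replicate 4 held 12 of the ppl counts and 10 of the evpl counts, so that share is mostly the value of this library. The intervals pool reads over libraries and cover counting error only.

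Keratinocyte genes were set beside the 4 genes. As a yardstick, chosen after the values were seen, the counts of 9 basal keratinocyte and desmosome genes (dsp, itga6, itgb4, lama3, lamb3, perp, pkp2, pkp3 and tp63) were summed. Of these, 6 were tested and 4 were called higher in taste bud (pkp3, perp, itgb4 and tp63), as were 20.2% of all tested genes. The filter on low counts passed tp63 through taste bud libraries alone. Of the 1994 taste bud and 795 tooth counts of the 9 genes, pkp3 alone held 941 and 143. Their summed level was 411 to 794 CPM in the 6 tooth libraries, 2356 to 3389 CPM in L. fuelleborni taste bud, and 2559, 506 and 2772 CPM in replicates 1, 2 and 3 of M. zebra taste bud. M. zebra taste bud replicate 2 thus lay within the tooth range. The summed level of the 4 envelope genes in that library was 549 CPM, close to the 566 CPM of M. zebra replicate 3, whereas in tooth it was 14.3 to 72.4 CPM. The 4 genes together held 20.4 to 109 counts for every 100 of the yardstick in taste bud and 2.21 to 10.4 in tooth. The 4 genes passed the filter on low counts through taste bud libraries alone, and the yardstick was chosen with the values known. A gap was therefore partly built in, and nothing is read from it.

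**Figure D4:**
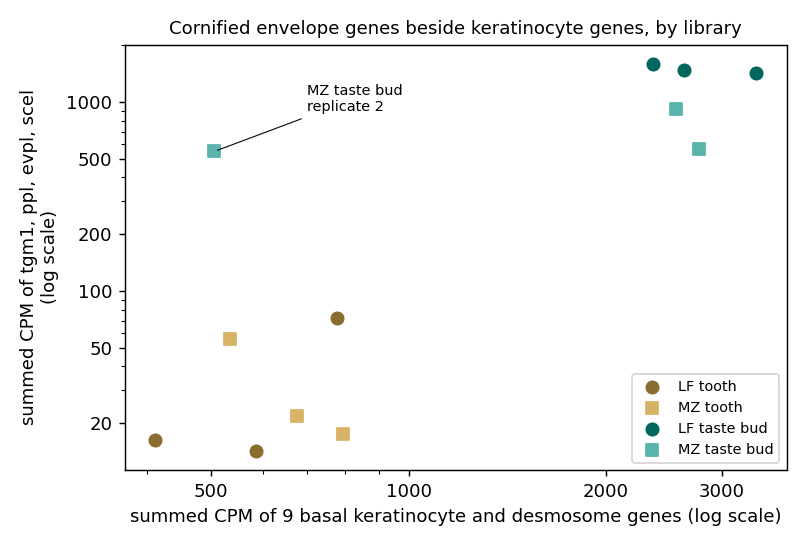
Summed CPM of the 4 envelope genes against summed CPM of 9 basal keratinocyte and desmosome genes in the 12 libraries, both on log axes. M. zebra taste bud replicate 2 lies at 506 CPM on the keratinocyte axis, among the tooth libraries, and at 549 CPM on the envelope axis, well above the tooth libraries.

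Against this yardstick the species gap of ppl was not clear. There were 25.6, 28.4 and 33.8 counts of ppl per 100 in L. fuelleborni taste bud and 12.02, 37.1 and 8.70 in M. zebra taste bud, where replicate 2 was above all others. The value of replicate 2 rests on 13 ppl counts and only 35 yardstick counts. The other taste bud libraries had 183 to 593 yardstick counts. The group means of ppl per 100 were 29.3 ± 4.17 and 19.3 ± 15.6 (SD, n = 3 each, exact permutation p = 0.4). Without M. zebra replicate 2, set aside after its value was seen, the groups did not overlap, and nothing is read from this. For evpl, scel and tgm1 the species overlapped on this scale, with exact p from 0.5 to 1.

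The few ppl and evpl counts in tooth were compared with the feature most abundant in the taste bud strip, taken from these same data. The unnamed feature LOC105941146 took 11.9% to 26.4% of all counts in taste bud libraries and 0.0596% to 0.778% in tooth. In taste bud there were 1.68 to 10.1 counts of ppl and evpl per 1000 of LOC105941146. In tooth there were 2.09 in L. fuelleborni replicate 3, 13.7 to 50.6 in the other two of that species and 19.8 to 109 in M. zebra. The tooth values rest on few ppl and evpl counts, from 2 to 22 in a library. Division by a feature this rare in tooth also raises them, so no order between the tissues is read.

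Other genes of the envelope and of keratinocyte maturation were read from lists. Of the 2 further plakins tested, neither passed. The desmosomal plakin dsp was at 172 ± 36.0 CPM in tooth and 309 ± 150.3 CPM in taste bud (SD, n = 6 each; log2 fold change 0.77, SE 0.36, adjusted p = 0.0713), and dst, which anchors keratin to hemidesmosomes, was at 169 ± 67.7 and 130 ± 45.5 CPM (adjusted p = 0.403). Of 3 tested desmosome genes, 2 were higher in taste bud, as were 20.2% of all tested genes. Plakophilin pkp3 was at 117 ± 50.7 CPM in tooth and 1135 ± 572 CPM in taste bud (log2 fold change 3.33, SE 0.44, adjusted p = 5.41e-07), and perp, a membrane protein of desmosomes, was higher by 1.98 (SE 0.50, adjusted p = 0.00139). The third was dsp.

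Of 6 tested regulators of keratinocyte transcription and splicing, 4 were called higher in taste bud and 2 in tooth, directions in which 20.2% and 32.6% of all tested genes were called. Each of the 6 reached the filter level in 3 or more libraries of 1 tissue and in 0 of the other, so the difference was built into their being tested and nothing is read from the count. The splicing factor esrp1 (log2 fold change 4.52, SE 0.75), the zinc finger gene znf750 (3.67, SE 0.57), which drives late keratinocyte maturation in human skin, grainyhead-like grhl1 (3.28, SE 0.76) and the basal cell factor tp63 (2.50, SE 0.47) were the former. The transcription repressor gene prdm1 (-4.93, SE 0.67) and mafb (-1.98, SE 0.53) were the latter. Adjusted p in this group ran from 8.52e-07 (prdm1) to 0.00249 (mafb). The related gene grhl3, named after its values were seen, was below the filter with 28 counts in taste bud and 0 in tooth. Its taste bud level was 14.6-fold the tooth limit of 3 counts, without the counting error of taste bud.

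The remaining lists had few tested genes, and 20.2% of all tested genes were called higher in taste bud. In the list of envelope-associated genes only anxa1 was found by name, a membrane-binding protein that is a component of the mammalian envelope, and it was higher in taste bud (203 ± 128 and 1072 ± 924 CPM, log2 fold change 2.20, SE 0.44, adjusted p = 1.29e-04). Of 8 barrier lipid genes in the table, ugcg, which makes glucosylceramide, was the only one tested and was higher in taste bud (log2 fold change 2.07, SE 0.34, adjusted p = 1.35e-05). Below the filter, the ceramide transporter abca12, needed for the mammalian skin barrier, had 12 tooth counts and 8 taste bud counts. Scaled by library size its ratio of taste bud to tooth was 1.04 (95% counting interval 0.37 to 2.77). The ceramide synthase cers3 had 3 and 0 counts, and slc27a4 had 23 and 30, a ratio of 2.03 (1.14 to 3.67). Each of the others below the filter had at most 10 tooth counts and 6 taste bud counts. Of 2 tested epidermal protease genes, the membrane protease st14 was higher in taste bud (2.70, SE 0.54, adjusted p = 1.23e-04), having passed the filter through taste bud alone, and its inhibitor spint1 did not pass (-0.76, SE 0.55, adjusted p = 0.251). Of 3 tested basal keratinocyte genes, tp63 and the hemidesmosome integrin itgb4 (1.88, SE 0.52, adjusted p = 0.00307) were higher in taste bud, while the laminin chain lama3 did not pass (log2 fold change -0.16, SE 0.40, adjusted p = 0.761). Of 3 tested general epithelium genes, esrp1 and st14, both also in lists above, passed. The only tested calcium handling gene, the Golgi pump atp2c1, did not (adjusted p = 0.943). No tight junction gene passed the filter, and its 5 genes together had 96 tooth counts and 36 taste bud counts.

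**Figure D5:**
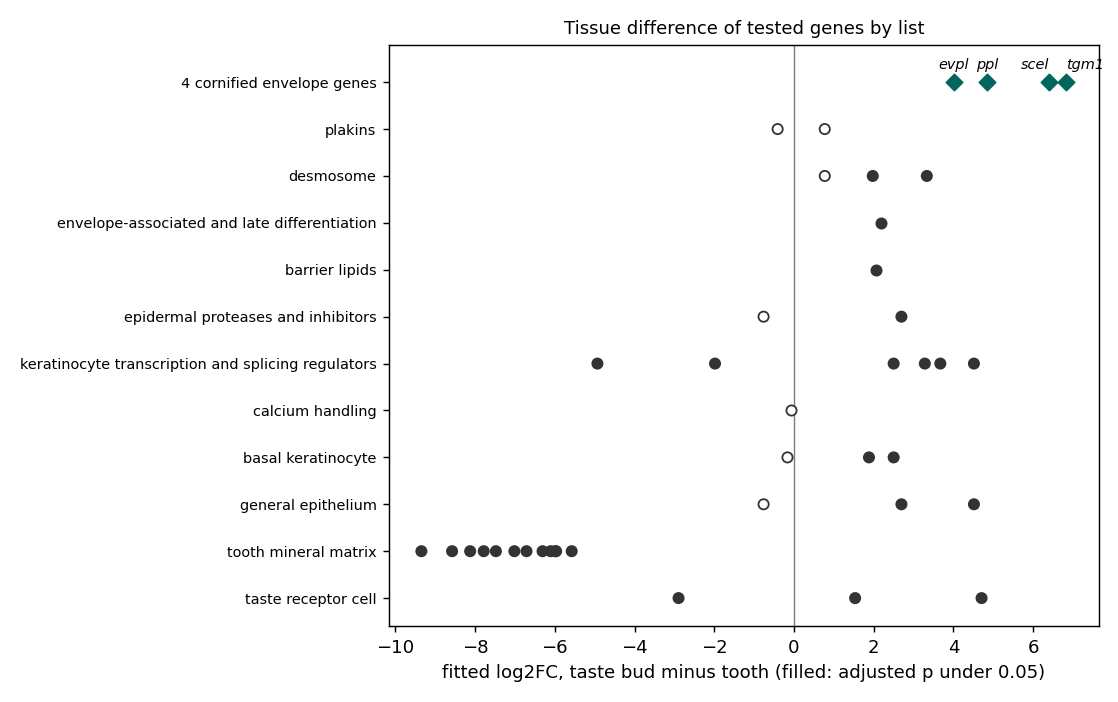
Fitted log2 fold change of taste bud minus tooth for tested genes, by list, with the 4 envelope genes on top; filled points passed the threshold. Fitted values of tgm1 and 7 tooth matrix genes, with no count in 1 tissue, and of scel, with none in M. zebra tooth, depend on the prior count; tested plakins other than ppl and evpl lie at 0.77 and -0.41.

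Markers of other cells that the strip could hold were read in the same way. In taste bud, 4 immune cell genes summed to 151 to 826 CPM in L. fuelleborni and 69.9 to 83.4 CPM in M. zebra. This is the same order of species as for ppl. In 12.6% of tested genes all L. fuelleborni taste bud libraries lay above those of M. zebra. The part of the immune cell genes in the ppl difference was not tested. In that list cd74 held 200 of 215 taste bud counts, so the sum is mostly 1 gene. It did not pass between the tissues (edgeR, adjusted p = 0.793). Between the species in taste bud cd74 missed the threshold (log2 fold change 2.61, SE 0.79, adjusted p = 0.0547). Ionocyte genes summed to at most 57.8 CPM in any taste bud library. In the mucous cell list spdef had 0 counts in all libraries, agr2 had 2 tooth counts and no taste bud counts, and creb3l1 did not pass (adjusted p = 0.430). Skeletal muscle genes were led by ryr3, which did not pass (adjusted p = 0.319). The vessel gene cldn5 was called higher in tooth, as were 32.6% of all tested genes. The filter on low counts passed cldn5 through tooth libraries alone, so its direction was built in.

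The 5 named genes whose log2 CPM followed the mean of the 4 most closely over the 12 libraries were aasdh (Pearson r = 0.975), snrnp70 (0.970), fam103a1 (0.955), plpp6 (0.952) and klf2 (0.9497), among 1585 named genes compared. These values mostly carry the split between the tissues, which all points share. Between pairs of the 4 genes r was 0.910 to 0.967 over the 12 libraries. Over the 6 taste bud libraries, after removal of the species means, the highest r between pairs was 0.930 (evpl and scel). The lowest was -0.49 (tgm1 and evpl), and the other pairs gave -0.41 to 0.48. With 6 libraries, and with 2 to 21 counts of tgm1 and 6 to 39 of scel in each, no grouping is read from these values. After the same removal the closest other genes, tmem184b, tuft1, esyt1, lhx8 and ugdh (0.974 to 0.980), had only 3 to 18 taste bud counts, so that the order rests on very few reads.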

How the data were processed

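The table deposited by the authors holds raw counts of reads for each gene feature in each library, as whole numbers without normalization. Per the submitters' processing notes, which give no roles, the tools were HTSeq 0.6.1, limma 3.20.9, SAMtools 0.19, TopHat2 2.0.9 and edgeR 3.6.8. Not given in the sources used here were the genome build, annotation and strand setting. Reads of overlapping genes on opposite strands may therefore not be separated. Copies of the 4 genes known by locus number only (15871 features) were not identified, and gene lengths were not used here.

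Tests were run in R 4.3.3 with edgeR 4.0.16: filterByExpr (minimum count 10, minimum total 15), which left 2962 genes, TMM factors, and a quasi-likelihood model of 4 group means over all 12 libraries without a replicate block. P-values were two-sided and adjusted over the 2962 genes by the Benjamini-Hochberg method, with a threshold of 0.05. SE is the log2 fold change over the square root of F. CPM uses all counts and TMM factors. Alternatives used DESeq2 1.42.0, limma 3.58.1, other scalings, no filter and fewer libraries. The code was tested on simulated counts. No pair of libraries of a group agreed within sampling noise (chi-square per degree of freedom 2.81 to 17.6), so none was merged; this does not show that they are separate samples.

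The genes and lists were chosen with earlier results of these data known. All 4 members are named. From each list up to 4 tested genes past the threshold per direction are named, and the 5 genes of highest likeness. Some list genes that did not pass or were below the filter are also named, without a fixed rule for their choice. A feature joined a list by its symbol, alone or with a copy suffix; mafa and mafb did not count as copies of maf. A gene of the lists is not reported here and was left out of list counts and sums.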

Additional observations from a re-analysis of the deposited data

How the results depend on the processing

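Depth limits the tooth values, since the 4 genes had 0 to 25 tooth counts each. In the tissue comparisons 221 of 221 values of the 4 genes under alternatives kept their sign. The alternatives use the same counts, and the 4 genes passed the filter through taste bud libraries alone. The direction was thus built in, and the tally is not read as support. With only the groups of the comparison in the fit, 3 results gave no value because the gene failed the filter: tgm1 in each species and scel in M. zebra. Other scalings moved the median log2 fold change of all tested genes between tissues from -0.21 with TMM to -0.41 with RLE size factors and -0.54 with total counts. The number of genes tested also changed with the setting, so counts of genes called are not compared across settings. Without the filter on low counts 20692 genes were tested. Of these, 3327 were called between tissues over both species, 1881 in L. fuelleborni, 124 between species in tooth, 229 in taste bud and 2 for the interaction. Without the 3 libraries of highest ribosomal share, 744 were called between tissues in L. fuelleborni and 18 for the interaction. Those 3 libraries were taste bud replicates 1 and 2 and tooth replicate 4 of L. fuelleborni. Taste bud replicate 4, the library farthest from its group, was then the only L. fuelleborni taste bud library in the fit. Neither count is therefore read as an effect of ribosomal share. With the taste bud groups alone in the fit 81 of 1383 tested genes were called between species. Leaving out 1 library at a time gave 27 to 91 between species in tooth, where all libraries gave 45 of 2962. The 27 were of 3396 tested without L. fuelleborni tooth replicate 4, and the 91 of 3684 without its taste bud replicate 4. In taste bud the range was 64 to 230, where all libraries gave 127 of 2962. The 64 were of 3728 tested without M. zebra taste bud replicate 2, and the 230 of 3684 without L. fuelleborni taste bud replicate 4. For the interaction the range was 0 to 1. The species difference of ppl in taste bud was 1.69 with DESeq2 and 1.83 with those groups alone, both past the threshold, and 1.61 to 1.87 with 1 library left out. That of scel was -0.065 to 1.05, reversed without M. zebra taste bud replicate 3, and the interaction of ppl was -1.11 to 1.55, reversed without M. zebra tooth replicate 1. Causes were not tested.

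Same-numbered tooth and taste bud libraries of a species gave correlations of -0.01, 0.05 and 0.24. Pairs with different numbers gave -0.24 to 0.20. With 3 libraries in a group these values cannot show whether a shared number marks 1 animal. With a replicate block 1605 genes were called between tissues, 121 between species in taste bud and 1 for the interaction, and ppl was at 1.72 between species in taste bud (adjusted p = 0.0872).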
